A study of Mus musculus with 2 samples.

Results

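Lmna and Plec are 2 mouse genes over which c-Fos peaks lay in long runs in p53-deficient bone marrow mesenchymal stem cells. Members were the peaks whose centre fell in a fixed mm9 window for each gene, chr3:88280000-88330000 for Lmna and chr15:75999000-76065000 for Plec. The windows held 14 of the 10870 peaks in the list, 8 at Lmna and 6 at Plec. That the windows cover the genes was taken as given and was not checked against an mm9 annotation. The genes were chosen by the positions of peaks, because each overlaps a run of at least 6 peaks in which neighbouring centres lie within 10 kb. The number and closeness of the peaks are therefore what chose them and are given as a description, with no test. A neighbouring centre within 10 kb was found for 14 of 14 members, as the choice requires, and for 27.3% of all peaks. Scores and widths come from the same list and are described in the same way.

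The data come from 1 chromatin immunoprecipitation sequencing (ChIP-seq) library made with an anti-cFos antibody (10 ug, 50000000 fixed cells), and the series also has 1 input library. Both libraries came from mesenchymal stem cells of mouse bone marrow with the genotype p53KO expressing cFos, kept for fewer than 20 passages. All cells in the series thus lack p53 and express c-Fos, and the labels name no cells without either change. The labels give neither the construct that drives c-Fos nor whether the line is 1 clone. With 1 ChIP library, no value below has a replicate error and no comparison between conditions can be made. Sequencing depth is unknown, because the list gives no read counts, and the cell type could not be checked against markers in a peak list.

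c-Fos binds DNA together with a Jun protein, as the dimer AP-1, at a short motif. The form searched for here was TGANTCA, with any base at N. Lmna encodes the A-type lamins, lamin A and lamin C, which line the inner nuclear membrane and give the nucleus its stiffness. They are abundant in mesenchymal cells, and A-type lamins have been described to hold c-Fos at the nuclear envelope. Plec encodes plectin, a large cytolinker that ties intermediate filaments to actin, to microtubules and to the adhesion sites of the cell. Plectin is made in several isoforms that start from alternative first exons.

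Lmna has 2 entries in a RefSeq promoter table on GRCm38.p6, and Plec has none. The Lmna sequences are shown because they are the regulatory sequence at hand for a gene of the runs. Each is the 250 bases before an annotated start, on the minus strand of GRCm38.p6, printed 5′ to 3′ in lower case. The entries are at chr3:88503353-88503602 (start 1) and chr3:88493313-88493562 (start 2). Peaks are on mm9, coordinates were not converted, and no peak was placed at or away from either start.
Lmna start 1: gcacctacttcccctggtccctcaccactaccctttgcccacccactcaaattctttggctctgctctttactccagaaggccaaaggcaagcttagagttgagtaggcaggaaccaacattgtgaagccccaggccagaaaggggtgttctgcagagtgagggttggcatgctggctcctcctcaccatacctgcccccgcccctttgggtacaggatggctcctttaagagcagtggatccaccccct
Lmna start 2: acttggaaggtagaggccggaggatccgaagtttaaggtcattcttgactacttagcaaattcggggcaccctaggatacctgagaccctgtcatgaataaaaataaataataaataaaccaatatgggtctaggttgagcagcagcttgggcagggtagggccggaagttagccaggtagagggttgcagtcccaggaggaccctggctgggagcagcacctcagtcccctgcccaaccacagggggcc

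Both upstream stretches held 0 matches to TGANTCA on either strand. In the 300 bases that the table gives for each start (250 before and 50 after), start 1 held 1 match and start 2 held 0. That match begins at base 40 after start 1 and reads TGACTCA. It is shown in capitals within the last 30 bases of the entry, chr3:88503303-88503332 on the minus strand of GRCm38.p6.
Lmna start 1, after the start: gcctctgcctggctgtcagTGACTCAgtgt

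Of the 32851 promoters of 300 bases in the table, 2565 (7.81%) hold TGANTCA on either strand. With any base allowed at N, that share counts more than the form TGACTCA found at Lmna. TGACGTCA, the cyclic AMP response element, whose letters cannot overlap a TGANTCA match, was found in 588 of them (1.79%) and in 0 of the Lmna entries. A match is a description of letters and not a bound site. The sequence under the 14 peaks was not analysed here.

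The Lmna run held 8 c-Fos peaks between chr3:88294461-88326373 (mm9), a span of 31.9 kb of which peaks covered 30.7%. The score, the authors' own value for each peak, is on a scale the file does not state. It is used here to rank, summarise and match sites within the list and is not read as a height. The matching of peaks within 10% of a score depends on that scale. The median score over the whole list was 101 and the lowest 50.01. In order along mm9, the Lmna peaks scored 182.47, 171.06, 185.10, 60.25, 742.12, 125.85, 154.77 and 73.56. The run thus has 1 high site, the fifth, with lower-scoring sites on both sides. The fourth and the eighth lay below the list's median, and all others in the run lay above it.

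The high site of the Lmna run, chr3:88306638-88308237, ranked 53 in the list and 5 among the peaks of chromosome 3. No other peak of the run came near it, since the next, chr3:88298564-88300321, ranked 2325. Scores of the remaining 7 sites had a median of 155. The lowest, chr3:88303909-88304812, ranked 9145 and is the neighbour of the highest, with 3.08 kb between their centres. A site in the lower part of the list, with 15.9% of peaks at or below its score, thus sits directly beside one of its best-scoring sites.

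The Plec run held 6 c-Fos peaks between chr15:76020119-76044449 (mm9), a span of 24.3 kb of which peaks covered 28.97%. In order along mm9, they scored 221.69, 309.29, 861.62, 247.04, 432.77 and 94.05. Here the sites around the highest are high as well, and the sixth is the one peak below the list's median. The highest, chr15:76026267-76027782, ranked 25 in the list and 1 on chromosome 15. The second highest, chr15:76034266-76035375, ranked 359 in the list and 23 on that chromosome, and the third, chr15:76022820-76023907, ranked 832 in the list.

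**Figure D1:**
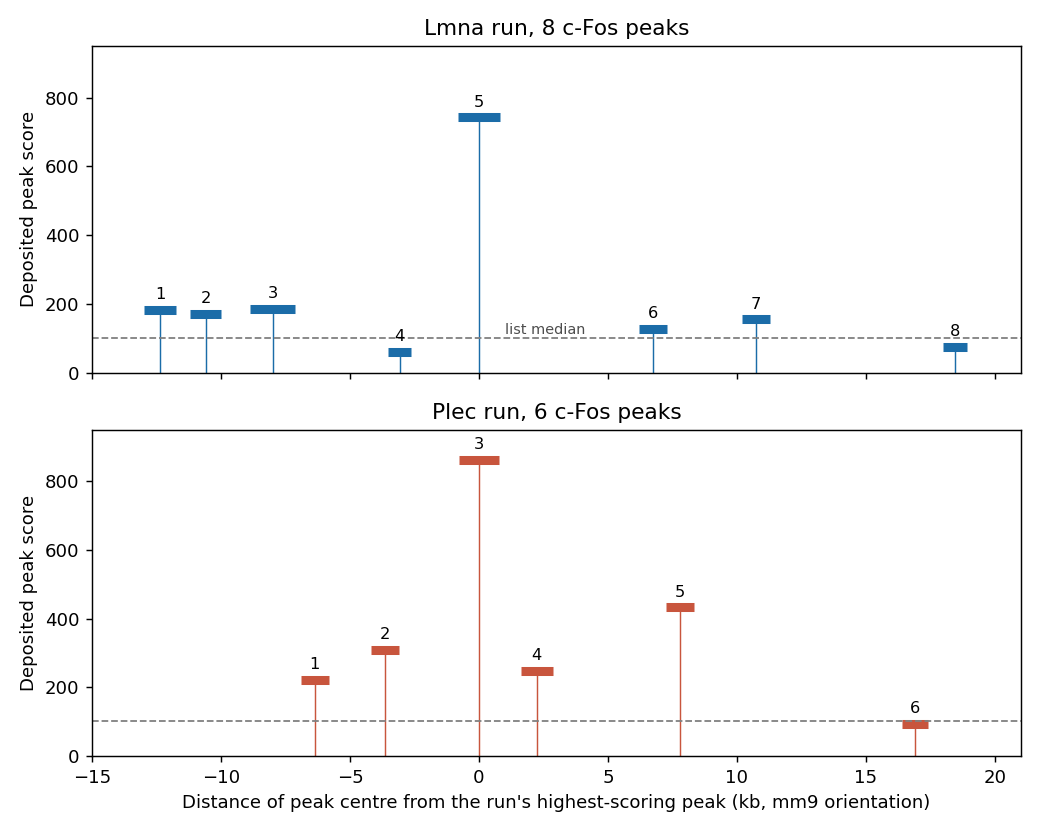
Deposited score of each c-Fos peak (vertical axis) against the distance of its centre from the highest-scoring peak of its run in kb (horizontal axis), for the Lmna run (8 peaks) and the Plec run (6 peaks). Bars span the peak's width, numbers give the order along mm9 and the dashed line is the median score of the list; the Lmna run has 1 peak above 200 and the Plec run has 5.

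The scores of the 2 runs differed in shape. At Lmna, 6 of 8 peaks scored at least 100 and 1 of 8 at least 200. At Plec, 5 of 6 scored at least 100 and the same 5 scored at least 200. Over the whole list, 50.7% of peaks scored at least 100 and 18.6% at least 200. Each run had 1 peak of at least 500, against 2.1% of the list. The median score was 163 at Lmna and 278 at Plec, and the ranges of scores overlapped (60.25 to 742.12 and 94.05 to 861.62). Without the highest peak of each run, the medians were 155 and 247. The difference between the runs has no test, since both were picked with results of this list known and peaks of 1 library are not replicates.

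Spacing was uneven in both runs. At Lmna, the distances between neighbouring centres were, in order, 1.76, 2.61, 4.92, 3.08, 6.77, 3.97 and 7.73 kb. The first 5 sites therefore lie closer together than the last 3, with the exception of the step of 3.97 kb between the sixth and the seventh. At Plec, the distances were 2.70, 3.66, 2.24, 5.56 and 9.12 kb, so that the first 4 sites are packed together and the sixth stands off. The median was 3.97 kb at Lmna (n = 7 distances) and 3.66 kb at Plec (n = 5). Across the 584 neighbouring pairs in all runs of at least 3 peaks, it was 4.24 kb, with a middle range of 2.31 to 6.88 kb. The standard deviation of the distances was 2.20 kb at Lmna and 2.80 kb at Plec, or 0.50 and 0.60 of their means. Distances here can by rule not exceed 10 kb, and the longest, 9.12 kb before the last Plec site, is the one nearest that limit.

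Measured from edge to edge, the gaps ran from 549 to 6728 bp at Lmna (median 2888 bp) and from 868 to 8058 bp at Plec (median 2359 bp). Gaps of at most 2 kb numbered 3 of 7 at Lmna and 2 of 5 at Plec. The share of such gaps over all runs was not computed, so these counts are not read as unusual. Median gaps in the other runs of at least 6 peaks were 2086.5, 3803 and 2501 bp. The narrowest gap at Lmna parted the first and second sites, chr3:88294461-88295681 and chr3:88296231-88297440, which scored alike at 182.47 and 171.06. The narrowest at Plec parted the highest site from the fourth, chr15:76028651-76029880. Whether such close pairs are separate sites or pieces of a broader region was not tested, since the list gives no signal between peaks.

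**Figure D2:**
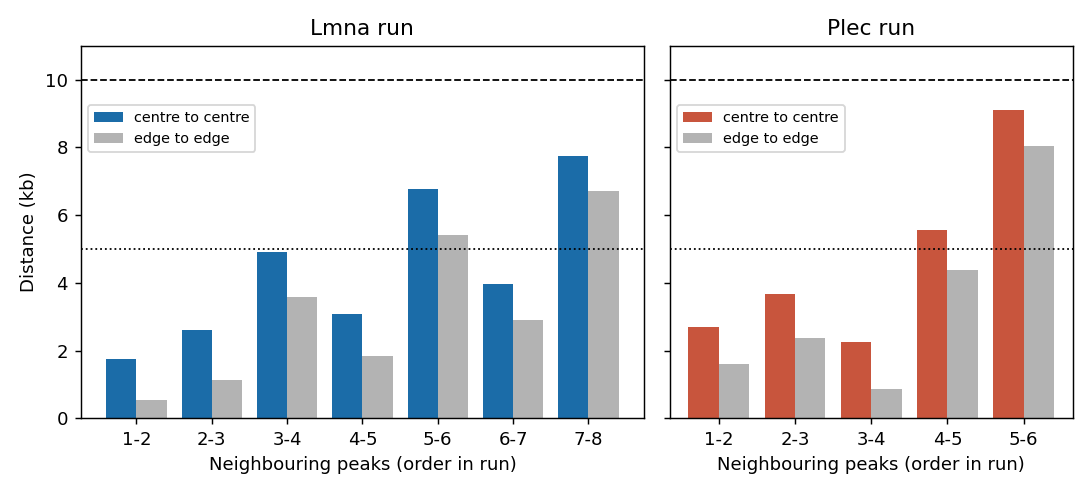
Distance in kb (vertical axis) between neighbouring c-Fos peaks in order along mm9 (horizontal axis) for the Lmna run and the Plec run, from centre to centre (coloured bars) and from edge to edge (grey bars). The dashed line marks 10 kb, the limit that defines a run, and the dotted line 5 kb; the longest bars are 7.73 kb at Lmna and 9.12 kb at Plec.

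Widths followed the scores. In order, the Lmna peaks were 1221, 1210, 1758, 904, 1600, 1087, 1078 and 933 bp wide. The lowest-scoring site of that run was its narrowest and the highest-scoring its second widest. The widest, the third, scored only 185.10. The Plec peaks were 1088, 1088, 1516, 1230, 1110 and 1016 bp wide, where the highest-scoring site was the widest and the lowest-scoring the narrowest. The rank correlation between score and width (Spearman's rho) was 0.95 over the 8 Lmna peaks and 0.78 over the 6 Plec peaks, beside 0.70 over the list. These describe peaks that share 1 library and 1 round of peak calling.

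The run peaks were mostly wider than the list's median of 949 bp. At Lmna, 6 of 8 were at least that wide, and at Plec 6 of 6, against 50.1% of the list. Median width was 1148.5 bp at Lmna and 1099 bp at Plec. At or above the list's 95th percentile of 1312 bp were 2 Lmna peaks and 1 Plec peak, against 5% of the list. Higher scores go with greater width throughout the list, so each member was also set beside the peaks whose score lay within 10% of its own. All 8 Lmna peaks and 4 of 6 Plec peaks were wider than the median of those peaks, against 50.2% of all peaks treated in the same way. The excess was largest for the third Lmna site, 1758 bp against a median of 1036 bp for 791 peaks of like score. The highest Lmna site was 1600 bp wide against 1376 bp (41 peaks), and the highest Plec site 1516 bp against 1300 bp (25 peaks). The smallest excesses were 31.5 bp at the eighth Lmna site and 29 bp at the first Plec site, so the counts include small differences. The second Plec site and the fifth were 21 and 37 bp narrower than their medians of 1109 and 1147 bp.

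**Figure D3:**
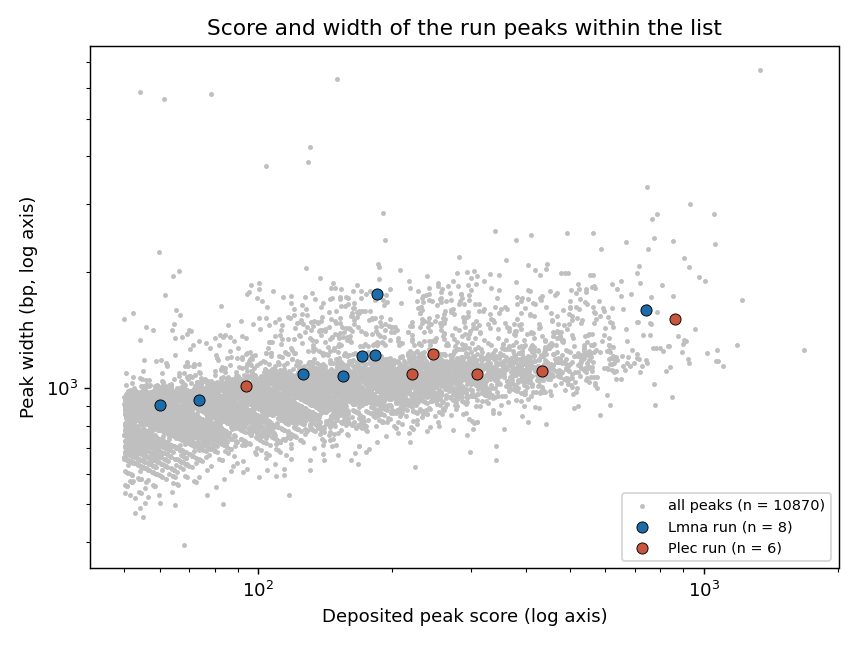
Width in bp against deposited score, both on log axes, for all 10870 c-Fos peaks (grey) with the 8 peaks of the Lmna run and the 6 peaks of the Plec run in colour. The run peaks reach from the Lmna peak scoring 60.25 (904 bp) to the Plec peak scoring 861.62 (1516 bp), and 12 of the 14 are wider than the median of peaks of like score, the Lmna peak of 1758 bp by the most.

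Within 100 kb on each side of its middle, each run had 1 other peak. At Lmna the nearest peak outside the window was chr3:88268114-88269809, which scored 190.34 and lay 24.7 kb before the run from edge to edge. On the other side the list was empty for 102 kb, up to chr3:88428673-88429794 (score 247.84). The peak before the run lies 11.04 kb outside the window, so the window's edge decided no member.

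At Plec the peak before the run, chr15:75992735-75993506, scored 51.21, close to the lowest score in the list. It lay 26.6 kb from the run and 5.88 kb outside the window. Widening each window by 10 kb on each side took in this peak, for 7 in the Plec window, and left 8 in the Lmna window. The peak is too far from the Plec run to be part of it. After the run no peak was listed for 247 kb, up to chr15:76291841-76292765 (score 82.23). Within 250 kb on each side of the middle of the run, the list held 11 peaks at Lmna, 8 of them in the run, and 7 at Plec, 6 of them in the run. Within 500 kb on each side, 12 peaks outside the Lmna run had a median score of 87.7 and a highest of 247.84. The 6 outside the Plec run had a median of 70.2 and a highest of 102.54. Each run thus held the highest-scoring site within 500 kb of its middle.

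The run at Lmna ranked second in the list by number of peaks, and the run at Plec shared the third place with 2 others. Only 5 runs in the list had at least 6 peaks, and they held 0.322% of all peaks. The run of 9 peaks at chr13:23517243-23545795 had a highest score of 230.79 and a median of 96.1. The run of 6 at chr2:44807957-44833829 reached 251.23 with a median of 159, and the run of 6 at chr3:108562211-108585146 reached 233.21 with a median of 96.5. None of these 3 held a site of at least 500, whereas Lmna and Plec held 1 each. Such a site is not particular to them, since 7 of the 14 runs of at least 5 peaks and 19 of the 241 runs of at least 3 held one. Median spacing in the 3 runs was 3002.5, 4653 and 3506.5 bp, a range that holds the values of Lmna and Plec. Median widths there were 919, 980.5 and 967.5 bp, below those of Lmna and Plec.

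Among the 14 runs of at least 5 peaks, Plec ranked first and Lmna second by highest score, and Lmna first and Plec second by median width. By median score Plec ranked 2 and Lmna 4. Among all 241 runs of at least 3 peaks, which held 7.59% of peaks, Plec ranked 3 and Lmna 6 by highest score. By second-highest score Plec again ranked 3, and Lmna 51. By median score Plec ranked 12 and Lmna 52 of the 241, and by median width Lmna ranked 12 and Plec 20. A run with more peaks has more chances to hold a high one, so ranks by highest score across runs of unequal size are descriptions only.

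**Figure D4:**
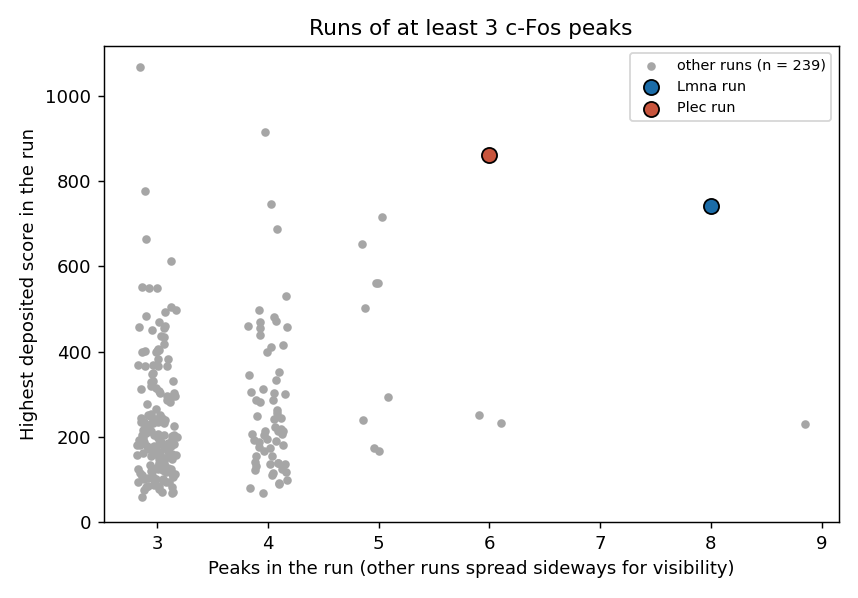
Highest deposited score in a run (vertical axis) against the number of c-Fos peaks in it (horizontal axis) for the 241 runs of at least 3 peaks whose neighbouring centres lie within 10 kb. The Lmna run (8 peaks, 742.12) and the Plec run (6 peaks, 861.62) lie above the other 3 runs of at least 6 peaks, whose highest scores are 230.79 to 251.23.

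Which exons or introns of Lmna and Plec hold the peaks was not analysed here. In the RefSeq gene table, which is on GRCm38.p6, the genes next to Lmna are Sema4a (a semaphorin), Mir7011, Gm40089 and Gm5979 on one side and Gm38618, Mex3a (an RNA-binding protein), Mir1905 and Rab25 (a small GTPase) on the other. Plec is flanked by Gm52196, BC024139, Gm35087 and Gm19945 on one side and by Mir1942, Parp10 (an ADP-ribosyltransferase), Grina and Mir6953 on the other. The distance from each peak to these genes was not computed, so a peak at the end of a run is not shown to belong to Lmna or Plec. The last Lmna peak, chr3:88325441-88326373, is the nearest to a window's edge, with its centre 4.09 kb from it. The Plec run starts 21.1 kb inside its window and ends 20.6 kb before the window does.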

How the data were processed

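The c-Fos peak list of 1 ChIP library was used, and the input library was not analysed here. Samples were grouped by the antibody in the labels. Each line deposited by the authors holds a start, an end and a score, whose scale is not stated there. Per the submitters' processing notes, mm9, MACS 1.4.1 and CASAVA 1.8.2 were used, with no role given. No source used here gives the control, the read filters or the threshold of peak calling.

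Positions are 1-based mm9. Widths count both end bases, and centres are midpoints. Runs were chained over the whole list wherever neighbouring centres lay within 10 kb. Ranks run from the highest score over all 10870 peaks. Run chaining and joining were tested on simulated positions. Members and lists were chosen with earlier results of these data known. The text names the 2 given genes, every peak in their windows, the nearest peaks outside, the other runs of at least 6 peaks and up to 4 neighbouring genes on each side. No test was run, since the rule used peak positions in this list. Alternatives tried were peaks scoring at least 100, all but the widest 5%, links of 5 and 20 kb, distances between edges, joining peaks within 2 kb, counting any overlap with a window and windows widened by 10 kb. Promoter sequences are from RefSeq (GRCm38.p6). Computations ran in Python 3.11.15 with pandas 2.3.3, numpy 2.4.6 and scipy 1.17.1, and plots in matplotlib 3.10.9.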

Additional observations from a re-analysis of the deposited data

How the results depend on the processing

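Of 68 recomputed values, 53 stayed within 1.5 times the main value and 15 moved further. A fall from 6 peaks to 4 counts as within. Some of the 53 had little room to move. Dropping peaks below 100 or joining peaks keeps the highest scores in the list, and no outside peak lay within 20 kb of either run. The tally is therefore not a measure of stability. Linking centres within 5 kb left 5 peaks in the Lmna run, 4 in the Plec run and 0 runs of at least 6 in the list. Linking within 20 kb gave 24 such runs, against 5. Joining peaks within 2 kb left 5 peaks in the Lmna window and run, and 4 in the Plec window and run. Median spacing became 7931.75 bp at Lmna and 6747 bp at Plec, and median width 2362 bp at Plec. The list then held 1 run of at least 6 peaks, at neither gene. A score of at least 100 also left 1 such run, the one at Lmna with 6 peaks, and 5 peaks in the Plec run. Leaving out the widest 5% removed the highest peak of each run and the 1758 bp peak at Lmna. That left 6 peaks in the Lmna run, 5 in the Plec run and 3 runs of at least 6 in the list. Highest scores became 182.47 at Lmna and 432.77 at Plec, and median spacings 7525 and 5728.5 bp. The depth is unknown, so sites below the lowest score of 50.01 cannot be counted. No paired analysis was possible because a single ChIP library was sequenced.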
